A study of Mus musculus with 6 samples.

Results

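The neuregulins, the other ligands of the epidermal growth factor (EGF) type and the ErbB receptors form a single signalling family, and 10 of its genes were followed in Pontin cTG and WT hearts after infusion of angiotensin II (Ang II). They were the ligand genes *Nrg1*, *Nrg4*, *Hbegf*, *Tgfa* and *Btc*, the receptor genes *Egfr*, *Erbb2*, *Erbb3* and *Erbb4*, and *Errfi1*, which encodes a feedback inhibitor of the receptors. The members were chosen by gene symbol among the 56748 genes of the count table. All 10 were found, in 11 entries of the table, because *Nrg1* had a second short entry that held 0 counts in every library.

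In the Pontin cTG line, the mouse αMHC promoter, active in cardiomyocytes, drives a human Pontin cDNA with a flag tag. It was made by pronuclear injection and bred on a C57Bl/6 background. WT mice were their littermates without the transgene. All mice were males of 10 weeks and received Ang II from a mini-osmotic pump for 14 days (1.5 mg/kg a day), so each comparison was between 2 groups that had both been treated, and untreated hearts were not analysed here. RNA of 3 Pontin cTG and 3 WT hearts was sequenced, 1 library a heart. The libraries of WT replicates 1, 2 and 3 held 13194038, 12436822 and 12772244 counts, and those of Pontin cTG replicates 1, 2 and 3 held 14584102, 15279201 and 16888124. *Ruvbl1*, the mouse gene of Pontin, had 216, 221 and 217 normalised counts in WT and 249.9, 250 and 240 in Pontin cTG hearts (log2 fold change 0.18, standard error 0.12). The groups did not overlap, but human reads may not be counted on a mouse gene, and the transgene itself was not measured.

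Ligands of this family are made as membrane proteins and are released by proteases that cut them at the cell surface. EGF, TGF-α, betacellulin (*Btc*) and HB-EGF bind the EGF receptor. Neuregulins bind ErbB3 or ErbB4, and HB-EGF and betacellulin bind ErbB4 as well. The receptors act as pairs: ErbB2 has no known ligand and serves as the partner of the others, and ErbB3 has little kinase activity of its own. In the heart, neuregulin 1 from endothelial cells acts on ErbB4 and ErbB2 of cardiomyocytes, a signal needed for heart development and for the maintenance of the adult muscle. Ang II is known to activate the EGF receptor through the release of HB-EGF.

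None of the members passed the test between Pontin cTG and WT hearts. The test was edgeR's quasi-likelihood test on TMM-normalised counts, adjusted by Benjamini-Hochberg over 13888 genes with enough reads, among them all 10 members. At an adjusted p under 0.05, edgeR called 0 members and 0 of all genes tested (0%), and every member had an adjusted p of 0.999. At an unadjusted p under 0.05, it gave 0 members against 285 of all genes tested (2.05%). DESeq2 gave 0 members by either rule, beside 0.0072% of all genes by the adjusted and 1.58% by the unadjusted p. Limma-voom with sample quality weights gave 0 members by the adjusted p (0.0216% of all genes) and 2 by the unadjusted p, *Nrg1* and *Errfi1* (5.83% of all genes).

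Of the 10 members, 7 were lower and 3 higher in Pontin cTG hearts on average. Their median log2 fold change was -0.10, beside 0.00 for all genes tested. In 1 member of 10, *Nrg1*, all Pontin cTG values lay below all WT values, which is 10% of the members. Among all genes tested, groups that did not overlap were found in 8.33%, with Pontin cTG lower in 3.63% and higher in 4.7%. An exact two-sided permutation test of 3 hearts against 3 has 0.1 as its smallest p.

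**Figure D1:**
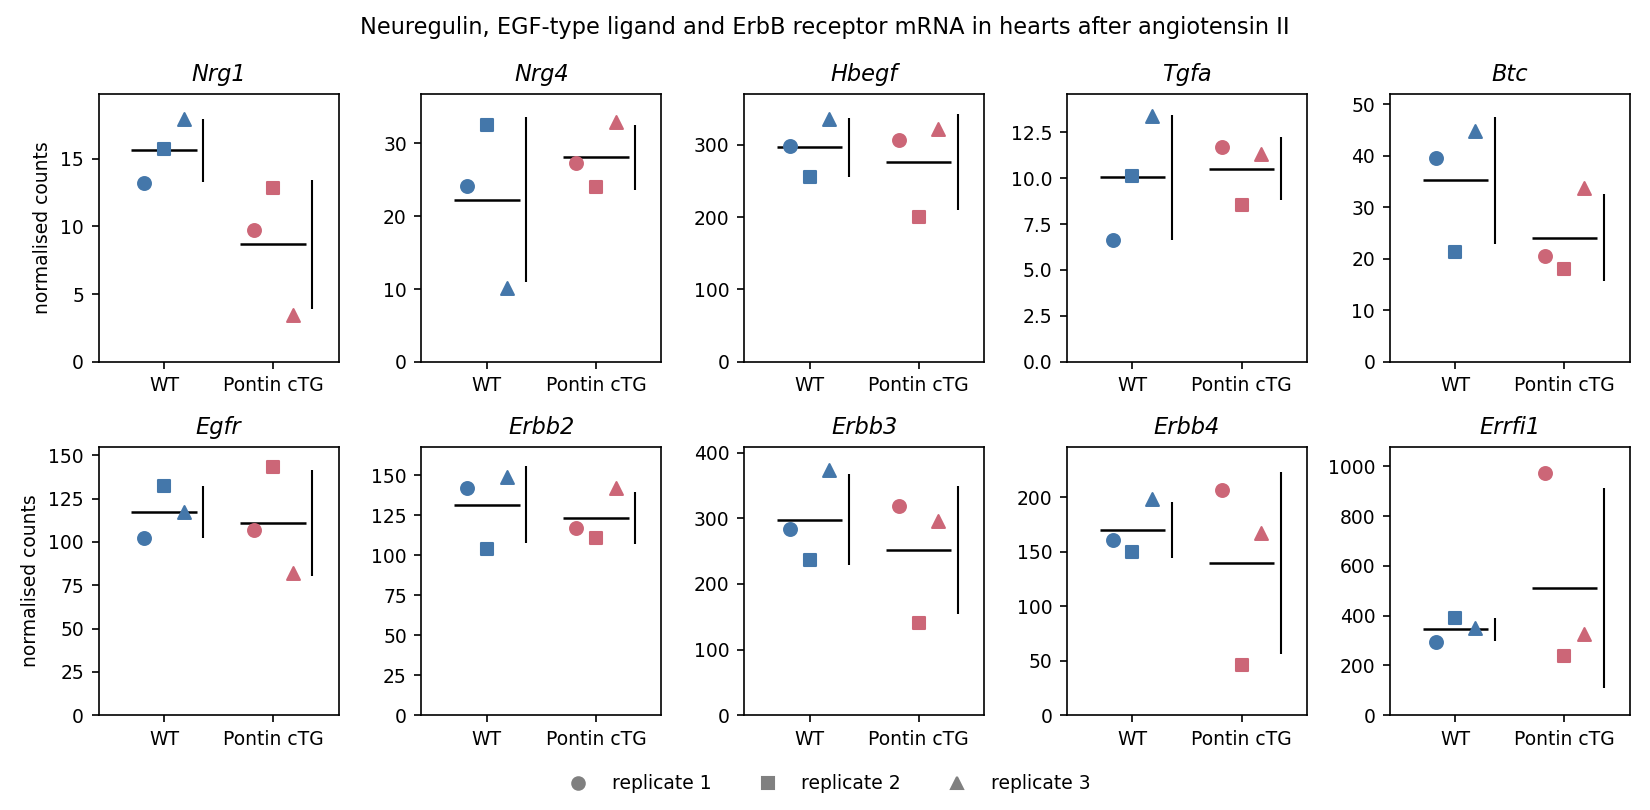
Normalised counts (vertical axis, from 0) of the 10 members in the 6 libraries. Each point is 1 heart, the shape gives the replicate, the horizontal line is the group mean and the vertical line spans 1 SD to each side. Only for *Nrg1* do the groups stay apart, and *Errfi1* in Pontin cTG replicate 1 (975) and *Erbb4* in Pontin cTG replicate 2 (46.2) stand away from the other libraries.

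The ligands are described first. *Nrg1* (ENSMUSG00000062991, GRCm38 chromosome 8 from 31814551 to 32884029, reverse strand) encodes neuregulin 1. It had 13.2, 15.7 and 17.9 normalised counts in WT and 9.76, 12.8 and 3.47 in Pontin cTG hearts. Every Pontin cTG value was lower than every WT value, although WT replicate 1 and Pontin cTG replicate 2 lay close together (p = 0.1 in the exact permutation test). The log2 fold change was -0.84 (standard error 0.50, 95% interval -1.96 to 0.29, unadjusted p = 0.126 in edgeR).

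*Nrg1* was a gene of few reads, 12, 14 and 16 in WT and 10, 15 and 4 in Pontin cTG libraries. The 4 reads of Pontin cTG replicate 3 allow a mean of 1.09 to 10.2 by their exact 95% Poisson interval, and the 12 reads of WT replicate 1 allow 6.2 to 21, with both intervals covering counting error only. Leaving out Pontin cTG replicate 3 gave a log2 fold change of -0.45. It was -1.25 without Pontin cTG replicate 2. In that setting *Nrg1* was the 1 member of 10 with an unadjusted p under 0.05 in edgeR, beside 686 of all 13978 genes tested. When counts were scaled by library size alone, or after a correction for gene length, the groups of *Nrg1* overlapped.

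Endothelial cells are the known source of neuregulin 1 in the heart. The 7 endothelial markers, of which *Kdr* was the most abundant and none was at 0, summed to 13492, 15225 and 13527 normalised counts in WT and to 13058, 15997 and 11769.8 in Pontin cTG hearts. The sum was lowest in Pontin cTG replicate 3, the library in which *Nrg1* was also lowest. It was highest in Pontin cTG replicate 2, where *Nrg1* also lay below every WT value. The sums of cardiomyocyte, macrophage and erythroid markers, described below, were lowest in Pontin cTG replicate 3 as well, at 394799, 1961 and 11695. The cardiomyocyte markers were mixed there: *Myh6*, the largest part of their sum, and *Actn2* were lowest, while *Tnni3* and *Pln* were highest. The part of any of these in the result was not tested. In bulk tissue, fewer cells of a type and less RNA in each of them cannot be told apart.

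*Nrg4* (chromosome 9 from 55220222 to 55326844) encodes neuregulin 4, a ligand of ErbB4 known mostly from brown adipose tissue. It had 24.2, 32.5 and 10.1 normalised counts in WT and 27.3, 24 and 32.9 in Pontin cTG hearts. The groups overlapped, and WT replicate 3 alone lay low (log2 fold change 0.33, standard error 0.42). Without that library the log2 fold change was -0.01. All 6 adipocyte markers had at most 5 counts in every library, *Ucp1* had 0 in all 6 libraries, and the most abundant of them was *Cidec*.

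*Hbegf* (chromosome 18 from 36504927 to 36515805) encodes HB-EGF, which binds EGFR and ErbB4. It had 298, 255 and 336 normalised counts in WT and 306, 199.5 and 322 in Pontin cTG hearts. Pontin cTG replicate 2 was the lowest and the other 5 libraries were mixed. The log2 fold change was -0.11 (standard error 0.20) with a 95% interval of -0.56 to 0.35, so that a change of 2-fold in either direction lies outside the interval.

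*Btc* (chromosome 5 from 91357261 to 91402994) encodes betacellulin. It had 39.6, 21.3 and 44.7 normalised counts in WT and 20.5, 18 and 33.8 in Pontin cTG hearts. WT replicate 2 lay among the Pontin cTG values, and the groups did not overlap once WT replicate 2 or Pontin cTG replicate 3 was left out, as was then the case for 16.4% and 18% of all genes tested. The log2 fold change was -0.54 (standard error 0.39, unadjusted p = 0.196 in edgeR) and stayed negative with each library left out, between -0.87 and -0.33.

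*Tgfa* (chromosome 6 from 86195223 to 86275719) encodes TGF-α, a ligand of EGFR. With 6.61, 10.1 and 13.4 normalised counts in WT and 11.7, 8.56 and 11.3 in Pontin cTG hearts, it was the member with the lowest mean in WT. The WT values enclosed all Pontin cTG values, and the 95% interval of its log2 fold change, -0.92 to 1.05, included a 2-fold increase.

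Of the 6 other ligand genes of the family, 4 had too few reads to be tested: *Areg* had a single read in all, *Nrg3* had none in any library, and *Epgn* and *Ereg* had at most 4 and 19 reads in a library. *Nrg2* was tested, and its log2 fold change was -0.22 (standard error 0.57). *Egf*, the gene of EGF itself, had 78.2, 87.5 and 109.6 normalised counts in WT and 51.7, 52.2 and 73.6 in Pontin cTG hearts. Its groups did not overlap, as was the case for 8.33% of all genes tested, and Pontin cTG replicate 3 lay close to WT replicate 1. The log2 fold change of *Egf* was -0.63 (standard error 0.24, unadjusted p = 0.0276 and adjusted p = 0.999 in edgeR).

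**Figure D2:**
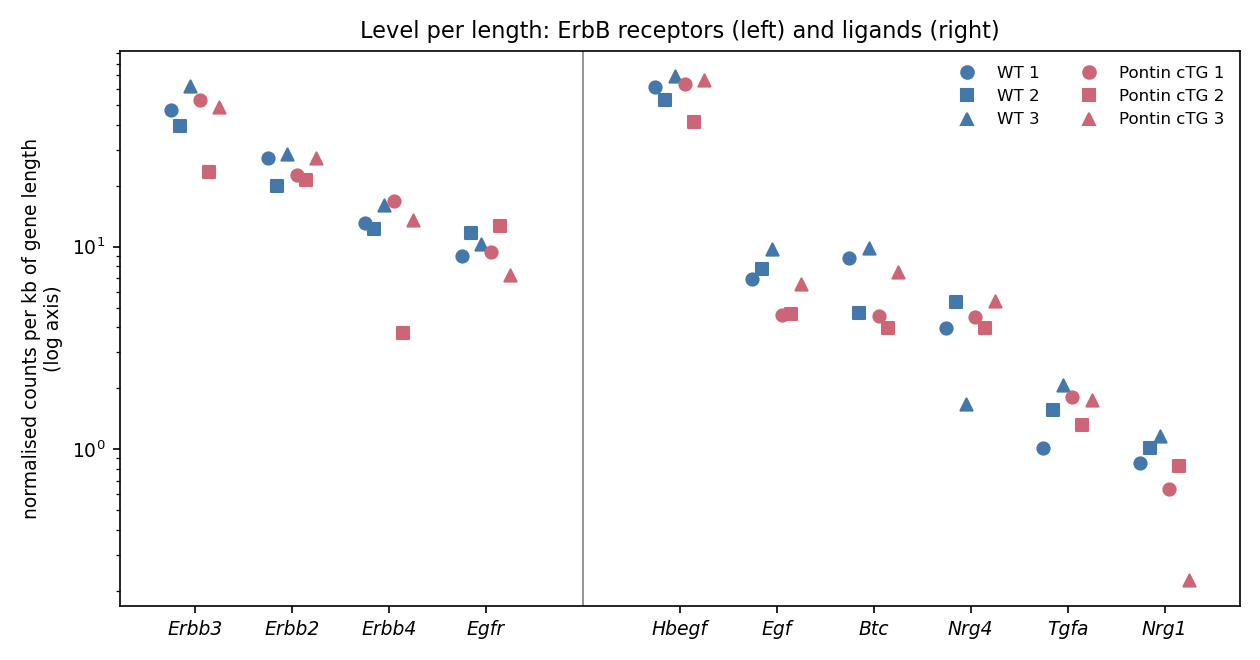
Level of the 4 receptor genes (left) and of 6 ligand genes (right) in normalised counts per kb of gene length, on a log axis, with 1 point per heart. *Erbb3* and *Erbb2* lie above *Erbb4* and *Egfr*, *Hbegf* lies well above the other ligands plotted, and *Tgfa* and *Nrg1* lie at the low end.

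For levels between genes, normalised counts were divided by the gene length in kb that the table lists. On this per-kb scale, the mean level over the 6 libraries was 59.2 for *Hbegf*, 6.69 for *Egf*, 6.56 for *Btc* and 4.14 for *Nrg4*. It was 3.22 for *Nrg2*, 1.58 for *Tgfa* and 0.787 for *Nrg1*. *Hbegf* was the highest ligand in every library, with 67.1% to 72.2% of the per-kb level of all 11 ligand genes, while the ranges of *Egf*, *Btc* and *Nrg4* overlapped one another. *Nrg1* held between 0.24% and 1.35% of that level. The order of *Tgfa* and *Nrg1* depended on the length used: with the longest annotated transcript in its place, their mean shares were 1.34% and 1.356%. So did the order of *Btc* and *Nrg4*, whose mean shares were then 5.927% and 7.912%.

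Among the receptors, the mean per-kb level over the 6 libraries was 45.7 for *Erbb3*, 24.5 for *Erbb2*, 12.6 for *Erbb4* and 10.1 for *Egfr*. *Erbb3* was the highest and *Erbb2* the next in every library. The ranges of *Erbb4* and *Egfr* over the libraries overlapped, at 3.74 to 16.8 and 7.27 to 12.6, but within each library except Pontin cTG replicate 2 *Erbb4* was the higher. Summed over the 4 receptors, the per-kb level was 98.9 ± 17.2 (SD, n = 3) in WT and 86.7 ± 22.3 (SD, n = 3) in Pontin cTG hearts (two-sided exact permutation test, p = 0.6).

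*Erbb4* (ENSMUSG00000062209, chromosome 1 from 68032186 to 69108059, reverse strand) encodes the receptor through which neuregulins act on cardiomyocytes. It had 161, 150.3 and 199 normalised counts in WT and 207, 46.2 and 167 in Pontin cTG hearts. Pontin cTG replicate 2 alone stood low, 3.62-fold under the median of the other 5 libraries, and the other Pontin cTG hearts lay within or above the WT range. The log2 fold change was -0.28 (standard error 0.43), and without Pontin cTG replicate 2 it was 0.14.

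In Pontin cTG replicate 2, 61 of the 13888 genes tested (0.439%) lay as far below the median of the other libraries as *Erbb4* did. That library stood apart in general: on the first principal component, which held 48.6% of the variance, it scored 50.8 and the others between -23 and 16.1. It had the lowest value of all libraries for 30.7% of all genes tested and for 5 of the 10 members, *Hbegf*, *Btc*, *Erbb3*, *Erbb4* and *Errfi1*. It also had the highest value for 30.2% of all genes tested and for 1 member, *Egfr*. *Erbb4* is a long gene, with a genomic span of 1075.9 kb. In the tenth of tested genes with the longest span (median 195 kb), the median deviation from the gene mean was -0.17 in Pontin cTG replicate 2 on the log2 scale and between -0.03 and 0.08 in the other libraries.

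The 6 cardiomyocyte markers, led by *Myh6* and with none at 0, summed to 402579.7, 524041 and 417651 normalised counts in WT and to 422909, 457795 and 394799 in Pontin cTG hearts, so the sum was not low in Pontin cTG replicate 2. Of the 6 markers, 2 were lowest and 1 was highest in that library. Among them, chosen after their values were seen, *Ryr2* had 10842 normalised counts there and 16789 to 24380.1 in the others, while *Tnnt2* had its highest value, 82380.4. The part of any of these in the *Erbb4* value was not tested.

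The genes whose pattern over the 6 libraries lay nearest to that of *Erbb4* were *Adra1a*, the gene of the α1A-adrenergic receptor, *Irs1*, the gene of an insulin receptor substrate, and *Gm10524*. Likeness was measured as the root mean square distance between log2 normalised counts centred on each gene's mean, among 13543 genes. The distances were 0.095, 0.1 and 0.13, where the median of all genes was 0.75, and all 3 genes were also lowest in Pontin cTG replicate 2.

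*Erbb2* (chromosome 11 from 98412470 to 98437716) encodes the shared partner receptor. It had 142, 104 and 149 normalised counts in WT and 117, 111 and 142 in Pontin cTG hearts. The Pontin cTG values lay inside the WT range, and the log2 fold change was -0.09 (standard error 0.20, 95% interval -0.54 to 0.35). The genes nearest to it in pattern were *Cdc42bpg*, *Agap1* and *Ypel2*, at distances of 0.032, 0.042 and 0.05 against a median of 0.28.

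*Erbb3* (chromosome 10 from 128567523 to 128589652) encodes a receptor of neuregulins that relies on a partner for its kinase activity and is prominent in Schwann cells. It had 283, 237 and 374 normalised counts in WT and 319, 140.4 and 295 in Pontin cTG hearts. Pontin cTG replicate 2 was again the lowest, 2.1-fold under the median of the other 5 libraries, and 2.64% of all genes tested lay as far below in that library. The log2 fold change was -0.25 (standard error 0.30), and without Pontin cTG replicate 2 it was 0.04.

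The 6 Schwann cell markers, of which *Cdh19* was the most abundant and none was at 0 in all libraries, summed to 163, 218 and 149.8 normalised counts in WT and to 122, 247 and 192 in Pontin cTG hearts. Their sum was highest in Pontin cTG replicate 2, the library in which *Erbb3* was lowest, and lowest in Pontin cTG replicate 1, in which *Erbb3* had its second highest value. The part of these cells in the *Erbb3* values was not tested. The genes nearest to *Erbb3*, looked up after its values had been seen, were *Rragd*, *mt-Ty* and *Foxo3*, at distances of 0.08, 0.084 and 0.088 against a median of 0.49.

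*Egfr* (chromosome 11 from 16752203 to 16918158) encodes the EGF receptor. It had 102, 132 and 117 normalised counts in WT and 107, 143 and 82.3 in Pontin cTG hearts. Both the highest and the lowest value belonged to Pontin cTG hearts, and the log2 fold change was -0.08 (standard error 0.23, 95% interval -0.60 to 0.44). Its direction was positive after a correction for gene length, at 0.05.

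The sums of several marker lists were high where *Egfr* was high, those of fibroblasts, endothelial cells, cardiomyocytes and Schwann cells. The 6 fibroblast markers, led by *Dcn* and with none at 0, summed to 11519, 14552 and 9825 normalised counts in WT and to 10679, 13904 and 10537 in Pontin cTG hearts. WT replicate 2 and Pontin cTG replicate 2 had the highest fibroblast sums and also the highest *Egfr* values, but the lowest fibroblast sum was in WT replicate 3, where *Egfr* was not low. The endothelial sum given above was likewise highest in these libraries, 15225 and 15997, and was lowest in Pontin cTG replicate 3, 11769.8, where *Egfr* was also lowest. The cardiomyocyte sum was highest in the same libraries, 524041 and 457795, and also lowest in Pontin cTG replicate 3, 394799. Its largest part, *Myh6*, was lowest in Pontin cTG replicate 3 (192476), as was *Actn2* (27088), but *Tnni3* (52444) and *Pln* (28003) had their highest values there. The Schwann cell sum was highest in them too, 218 and 247, but was lowest in Pontin cTG replicate 1, 122. The part of any of these in the *Egfr* values was not tested. The genes nearest to *Egfr* in pattern were *Golgb1*, *Lsp1* and *Polk*, at distances of 0.048, 0.049 and 0.051 against a median of 0.34.

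The balance among the receptors shifted in a single library. *Erbb4* held 13.5%, 14.6% and 13.7% of the summed per-kb level of the 4 receptors in WT and 16.5%, 6.13% and 13.9% in Pontin cTG hearts. *Egfr* held 9.38%, 14% and 8.84% in WT and 9.32%, 20.7% and 7.48% in Pontin cTG hearts. In Pontin cTG replicate 2 the share of *Egfr* was thus above that of *Erbb4*, while in the other 5 libraries *Erbb4* had the larger share. Over the 15 receptor and ligand shares compared between the groups by exact permutation tests, the smallest p was 0.1, for the share of *Egf*, and every adjusted p was 1.

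**Figure D3:**
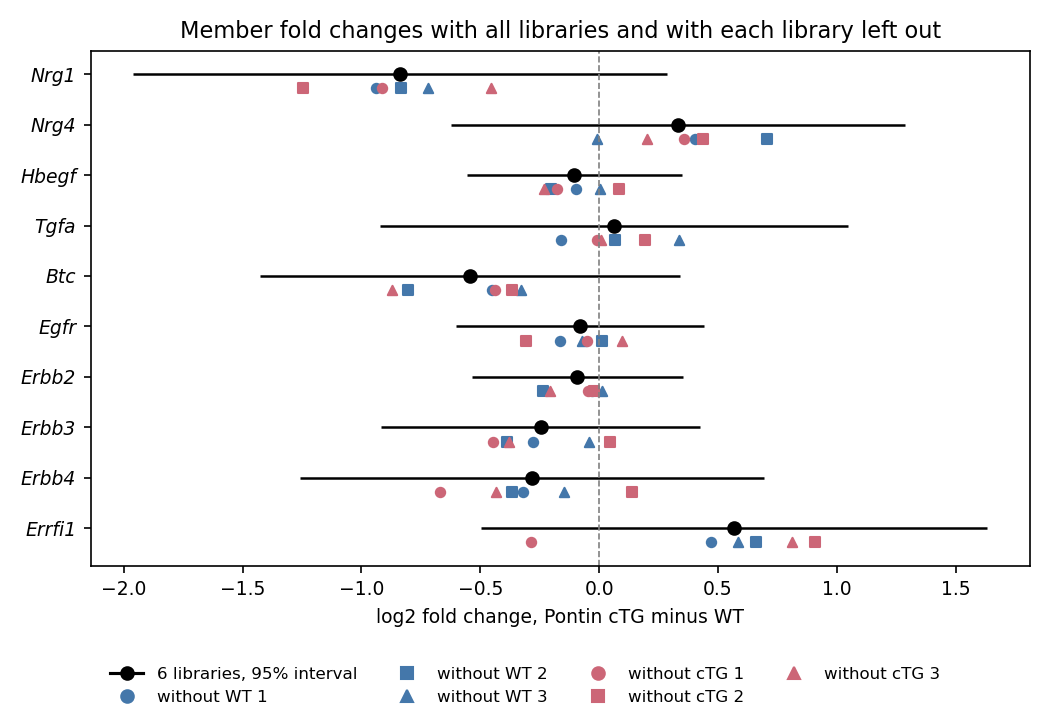
Log2 fold change, Pontin cTG minus WT, of each member from edgeR (horizontal axis). The black point and line give the estimate from all 6 libraries and its 95% interval, and coloured points give the estimates without 1 library each. All 10 intervals include 0, *Nrg1* and *Btc* stay below 0 whichever library is left out, and *Errfi1* falls below 0 without Pontin cTG replicate 1.

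*Errfi1* (ENSMUSG00000028967, chromosome 4 from 150853919 to 150868892, forward strand) encodes MIG6, which binds the kinase domains of the receptors and blocks them, and whose own gene is induced when they signal. It had 296, 389 and 351 normalised counts in WT and 975, 239.7 and 325 in Pontin cTG hearts. Pontin cTG replicate 1 stood 2.51-fold above the next highest library, and the other Pontin cTG hearts lay within or below the WT range. The log2 fold change was 0.57 (standard error 0.46, unadjusted p = 0.255 in edgeR), and without Pontin cTG replicate 1 it was -0.28.

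Measured against the median of the other 5 libraries, *Errfi1* was 3-fold higher in Pontin cTG replicate 1. In that library 25 of the 13888 genes tested (0.18%) lay as far above. Of the other members, *Erbb4* was the only one with its highest value in that heart. On the per-kb scale, the level of *Errfi1* was 96.5 ± 13.1 (SD, n = 3) in WT and 143 ± 112 (SD, n = 3) in Pontin cTG hearts, above each of the 4 receptors on average.

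The genes nearest to *Errfi1* in pattern, looked up after its values had been seen, were *Tent5b*, *Rtn4rl2* and *Sik1*, at distances of 0.2, 0.22 and 0.23 against a median of 0.67. *Sik1*, the gene of a salt-inducible kinase, had 312, 301 and 445 normalised counts in WT and 832, 249 and 295 in Pontin cTG hearts, so that Pontin cTG replicate 1 was the highest for it too.

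**Figure D4:**
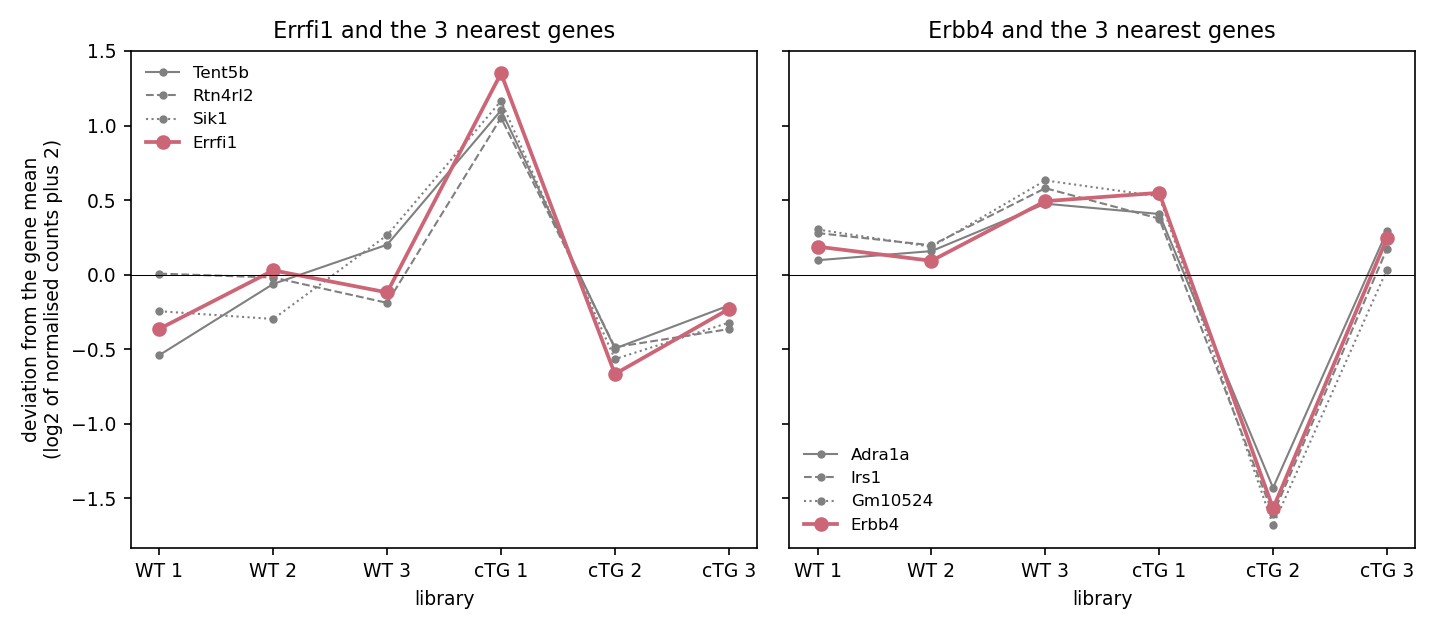
Deviation of each library from the gene's mean (log2 of normalised counts plus 2) for *Errfi1* (left) and *Erbb4* (right), each with the 3 genes nearest to it in grey. Lines only join the points of a gene; *Errfi1* and its neighbours peak in Pontin cTG replicate 1, and *Erbb4* and its neighbours dip in Pontin cTG replicate 2.

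Promoter windows of RefSeq (GRCm38.p6, 250 bases before to 50 after a start site) were matched by symbol for 7 of the 10 members, in 8 windows. They were searched on both strands, with letters chosen after the values were seen, for the full cAMP response element TGACGTCA, for TGACG, which is contained in it, for TATAAA and for the AP-1 site TGANTCA, and also for the glucocorticoid response element. Only 1 window held the full cAMP response element, the downstream window of *Errfi1*. Its bases before the start site (chr4:150854820-150855069, forward strand) are shown as the 1 member window with a full match, with the response element and TATAAA in capitals.

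Errfi1: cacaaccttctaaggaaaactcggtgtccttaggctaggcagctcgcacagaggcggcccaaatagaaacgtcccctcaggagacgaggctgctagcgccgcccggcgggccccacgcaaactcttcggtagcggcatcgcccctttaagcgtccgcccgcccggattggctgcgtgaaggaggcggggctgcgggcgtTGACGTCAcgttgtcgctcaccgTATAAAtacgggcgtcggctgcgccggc

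The response element began 51 bases and TATAAA 28 bases before the start site. Of the 32817 mouse promoter windows of the same length, 1.79% held the full response element, 20.8% held TGACG and 13.6% held TATAAA. No window of a member held the AP-1 site or the glucocorticoid response element, which 7.81% and 0.475% of all windows held. The other window of *Errfi1* held none of the letters searched. TGACG alone was also found in the windows of *Erbb2* and *Btc*, neither of which was highest in Pontin cTG replicate 1. These matches describe the sequence, binding was not measured, and no link between a match and the values of *Errfi1* was tested.

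The rest of the pathway was read from 4 lists: the proteases and helpers that release the ligands, the proteins that inhibit or degrade the receptors, the adaptors and effectors downstream, and the feedback genes of ERK signalling. At an adjusted p under 0.05, edgeR called 0 genes of each list. At an unadjusted p under 0.05, the gene of lower expression was *Cbl* among 16 inhibitors and turnover genes and *Braf* among 39 adaptors and effectors, no gene was higher, and the 11 release genes and 13 feedback genes gave 0 in either direction. For comparison, 1.03% of all genes tested were lower and 1.02% higher by this rule. Groups that did not overlap were found in 9.09% of the release genes and 12.5% of the inhibitors and turnover genes. They were found in 5.13% of the adaptors and effectors and 7.69% of the feedback genes, shares near the 8.33% of all genes tested.

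The median log2 fold change of the release genes was -0.07, 0.18 when WT replicate 2 was left out, and 0 after a correction for gene length. Among them, *Adam17*, whose protease cuts HB-EGF, TGF-α and neuregulin 1, had overlapping groups (log2 fold change -0.14, standard error 0.13). *Adam10*, whose protease cuts betacellulin and EGF, had 977, 919.8 and 924 normalised counts in WT and 874, 795 and 859 in Pontin cTG hearts. All its Pontin cTG values were lower, and its log2 fold change was -0.16 (standard error 0.12). *Adam15*, which had the smallest p of the list, gave 0.30 (standard error 0.22) and *Rhbdf1*, the gene of an inactive rhomboid protein that guides ADAM17 to the surface, gave 0.25 (standard error 0.19), both with overlapping groups.

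Among the inhibitors and turnover genes, with *Errfi1* counted in the list, the median log2 fold change was -0.09. It was 0.02 when Pontin cTG replicate 2 was left out and -0.0034 after a correction for gene length. *Cbl*, the gene of a ubiquitin ligase that marks activated EGF receptors for degradation, had 591, 564 and 542 normalised counts in WT and 541, 403 and 371 in Pontin cTG hearts. All Pontin cTG values were lower, by as little as 1 normalised count between WT replicate 3 and Pontin cTG replicate 1, and the log2 fold change was -0.37 (standard error 0.16, unadjusted p = 0.045, adjusted p = 0.999 in edgeR). *Ptprj*, the gene of a receptor phosphatase, also had groups that did not overlap (log2 fold change -0.21, standard error 0.15). *Usp8*, the gene of a deubiquitinase that acts on internalised EGF receptors, had overlapping groups (log2 fold change -0.17, standard error 0.13).

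Among the adaptors and effectors the median log2 fold change was -0.10, and -0.05 after a correction for gene length. *Braf*, the gene of a kinase between RAS and MEK, had 348, 332 and 347 normalised counts in WT and 285, 276 and 237 in Pontin cTG hearts, with a clear gap between the groups (log2 fold change -0.36, standard error 0.13, unadjusted p = 0.0198, adjusted p = 0.999 in edgeR). *Src*, the gene of a tyrosine kinase that acts with EGFR, had 54, 49.4 and 54.8 in WT and 73.2, 64.2 and 65.8 in Pontin cTG hearts, all higher (log2 fold change 0.36, standard error 0.21). For *Map2k2*, the gene of MEK2, the log2 fold change was 0.24 (standard error 0.13) and the groups overlapped.

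The feedback genes of ERK signalling are known to rise when the pathway is active, and their median log2 fold change was -0.05. The median was 0.08 when Pontin cTG replicate 3 was left out and -0.06 after a correction for gene length. For *Dusp6*, the gene of an ERK phosphatase, the log2 fold change was 0.16 (standard error 0.15), and for *Spry4*, the gene of a Sprouty inhibitor, 0.20 (standard error 0.23), both with overlapping groups. *Etv1*, the gene of an ETS factor, had 143, 147 and 134 normalised counts in WT and 114, 108 and 126 in Pontin cTG hearts, all lower (log2 fold change -0.29, standard error 0.16, unadjusted p = 0.101 in edgeR).

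**Figure D5:**
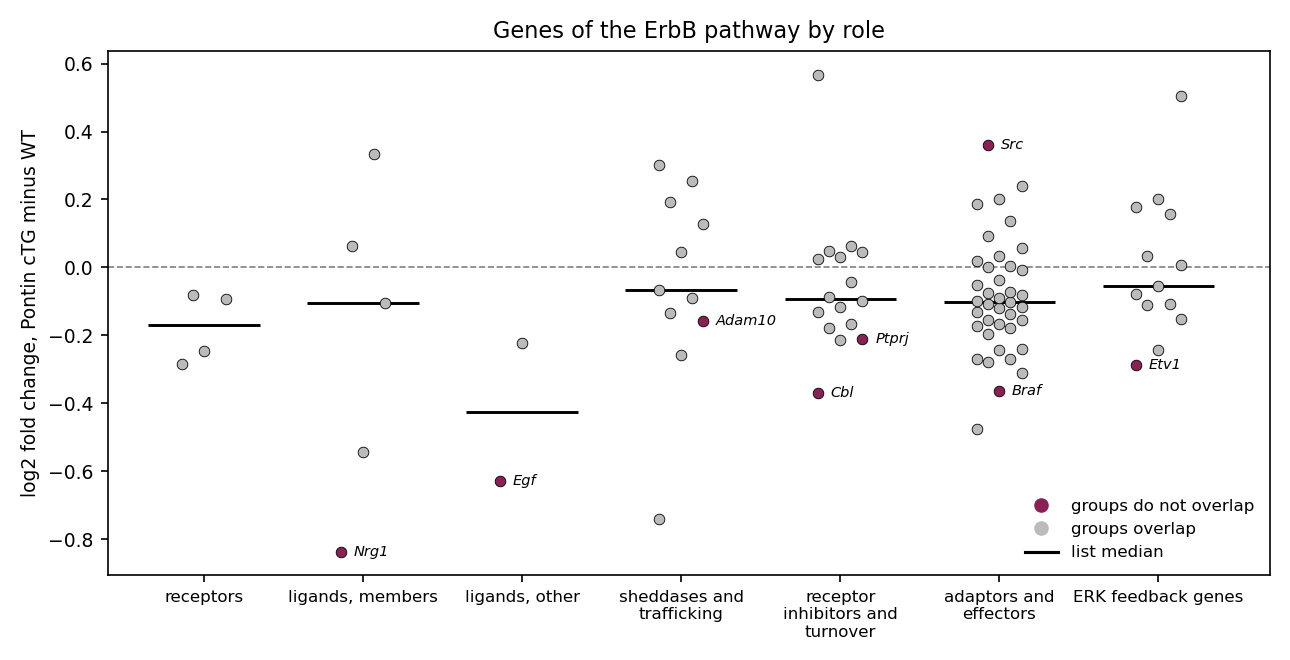
Log2 fold change, Pontin cTG minus WT (vertical axis), of each tested gene of the family and its pathway, grouped by role. The short black lines are list medians, and the 4 lists of release, turnover, effector and feedback genes have medians between -0.10 and -0.05. Named genes are those whose groups do not overlap, which was the case for 8.33% of all genes tested.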

How the data were processed

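Heart RNA of 3 Pontin cTG and 3 WT mice was sequenced after Ang II. The values are the authors' deposited whole-number counts per gene, without normalisation, in a table of all 6 libraries whose columns were matched by the column names in the labels (0 unmatched). The submitters' processing notes name fastp, HISAT2, featureCounts and DESeq2 with GRCm39, whereas the methods of the study name Trimmomatic, STAR and mm10, so how this table was made is uncertain. Nothing states strand-specific counting. WT mice were littermates of Pontin cTG mice, but which hearts shared a litter is not given in the sources used here, and p-values measure the spread between these hearts. The methods mention an outlier excluded after principal component analysis, the statistics section says that nothing was excluded, and all 6 libraries were used here.

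Genes passing filterByExpr (minimum count 10) were tested in edgeR 4.0.16 under R 4.3.3 by glmQLFTest, after TMM and a robust glmQLFit whose single term was genotype. The standard error is the log2 fold change divided by the square root of F. Normalised counts are counts over the TMM-scaled library size, times the geometric mean of these sizes. The tests were first checked on simulated counts. Positions of genes (GRCm38) come from GENCODE M21 by Ensembl identifier, and gene lengths are those the table lists. Of 52073 genes shared with that annotation, 1472 had the same coordinates in the count table. The positions printed can thus differ from those of the count table.

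The members, lists and tests were chosen with earlier results of these data known. Named genes are the members, *Ruvbl1*, in each list the 3 genes with the smallest p and those whose groups do not overlap, and the 3 genes nearest in pattern to *Nrg1*, *Egfr*, *Erbb2* and *Erbb4*. The nearest genes of *Errfi1* and *Erbb3*, and *Adam17*, *Ryr2*, *Tnnt2*, *Actn2*, *Tnni3* and *Pln*, were chosen after their values were seen. Alternatives were DESeq2 1.42.0, its size factors, library size alone, no filter, at least 10 counts in every library, mitochondrial genes left out, limma-voom (limma 3.58.1) with quality weights, a loess correction for gene length, the replicate block and each library left out. Other lengths for shares and an unadjusted p were added after the data were seen.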

Additional observations from a re-analysis of the deposited data

How the results depend on the processing

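The members called stayed at 0 in all settings run. Genes called over the whole table numbered 0 in edgeR, 1 with DESeq2, 3 without a filter, 3 with limma-voom, 3 without Pontin cTG replicate 2 (0 to 3 over the libraries left out) and 285 at an unadjusted p. With the replicate number as a block, 0 genes and 0 members were called (499 genes at an unadjusted p); same-numbered libraries had correlations of 0.077, 0.43 and 0.19, and WT replicate 1 correlated best with Pontin cTG replicate 3 (0.25), so the libraries were not treated as pairs. Members whose groups did not overlap numbered 1, against 0 with library size alone and 0 with the length correction, where 8.7% and 7.06% of all genes tested did not overlap. With a library left out, 1 to 2 of the 10 members and between 13.1% and 21.5% of all genes tested did not overlap. *Erbb4* had a log2 fold change of 0.0314 in limma-voom, and *Egfr* 0.0521 with the length correction and 0.0281 with block and length correction. With each library left out, the ranges of those that changed sign were -0.0072 to 0.71 for *Nrg4*, -0.23 to 0.083 for *Hbegf*, -0.16 to 0.33 for *Tgfa*, -0.31 to 0.10 for *Egfr*, -0.24 to 0.0119 for *Erbb2*, -0.45 to 0.044 for *Erbb3*, -0.67 to 0.14 for *Erbb4* and -0.28 to 0.91 for *Errfi1*. Shares from counts not divided by length were 18.13% for *Egfr*, 19.43% for *Erbb2*, 40.17% for *Erbb3*, 22.26% for *Erbb4*, 2.715% for *Nrg1*, 62.27% for *Hbegf* and 2.256% for *Tgfa*. With the longest GENCODE M21 transcript as length, *Nrg4* held 7.912% and *Btc* 5.927% of the ligand level, so that *Nrg4* was no longer below *Btc*. At that length *Nrg1* held 1.356% and *Tgfa* 1.34%, so that *Nrg1* was no longer below *Tgfa*, as also in the shares not divided by length. With the length correction, the list medians were -0.37 for the other ligands, 0 for the release genes and -0.0034 for the turnover genes. They were -0.05 for the adaptors and effectors and -0.06 for the feedback genes. The Spearman correlation of a library's deviation from the gene mean with gene length was 0.18, 0.18 and 0.11 in WT replicates 1, 2 and 3. In Pontin cTG replicates 1, 2 and 3 it was 0.084, -0.2 and -0.16. With each library left out, the list medians ran from -0.65 to 0.35 for the other ligands, -0.14 to 0.18 for the release genes, -0.17 to 0.02 for the turnover genes, -0.15 to -0.02 for the adaptors and effectors and -0.10 to 0.08 for the feedback genes, and limma-voom gave 0.03 for the release genes. The filter was applied anew without each library, and 13978 to 14401 genes then passed, against 13888 with all libraries. The genes behind these medians can therefore differ between settings, also for the other ligands, of which 2 were tested with all libraries. The causes were not tested. With at least 10 counts in every library, *Nrg1*, *Nrg4* and *Tgfa* drop out by construction. At 4 to 16 reads a library, counting error is part of the spread of *Nrg1*.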

Other observations

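The 3 genes nearest in pattern to *Nrg1* were *E2f1*, *Gm7895* and *Sh3bp2*, at distances of 0.2, 0.22 and 0.26 against a median of 0.65. All 3 were lowest in Pontin cTG replicate 3.

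WT replicate 3 had the highest value for 6 of the 10 members, *Nrg1*, *Hbegf*, *Tgfa*, *Btc*, *Erbb2* and *Erbb3*, and for 10.2% of all genes tested. The remaining marker lists also overlapped between the groups. The 6 macrophage markers, led by *Csf1r*, summed to 2527, 4189 and 2695 normalised counts in WT and to 2807, 2574 and 1961 in Pontin cTG hearts. The 6 pericyte and smooth muscle markers, led by *Rgs5*, summed to between 14314 and 16679 in all libraries, and the 5 erythroid markers, led by *Hbb-bs*, to between 11695 and 22338. Of the 4 atrial and 5 epicardial markers, only *Myl4* and *Wt1* had appreciable counts.

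Genes known to be induced by glucocorticoids (8 genes) and by cAMP (7 genes) were looked up with the values of *Errfi1* and its nearest genes known. The highest value was in Pontin cTG replicate 1 for 8 of 8 of the former and for 4 of 7 of the latter, *Nr4a2*, *Crem* and *Ppargc1a* being the exceptions, and for 12.6% of all genes tested. Because both lists were chosen after values had been seen, these counts are a description of 1 heart and support no reading of *Errfi1*.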
